A study of Mus musculus with 37 samples.

Results

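Endothelial cells line blood vessels, and in the heart tube they form the endocardium, the inner lining from which valve cushions arise. The 35 genes described here encode receptors, junction and surface proteins and transcription factors by which endothelial and endocardial cells are recognised. They were listed by symbol, and all 35 were found among the 25239 genes of the count table. All 35 also passed the filter on low counts that left 15046 genes for testing, and the lowest count of any of them in any library was 35.

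Vascular endothelial growth factors act through the receptor kinases encoded by Kdr, Flt1 and Flt4, and angiopoietins act through the kinase encoded by Tek, with Tie1 as its partner. Eng and Acvrl1 form a receptor complex for bone morphogenetic proteins of the blood stream. VE-cadherin (Cdh5) and Pecam1 hold neighbouring endothelial cells together, and the ETS factors Erg and Fli1 maintain endothelial gene expression. In the embryonic heart, Nfatc1 and Npr3 mark the endocardium. Tal1, Lyl1 and Lmo2 act in endothelial cells and also in blood cells.

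The measurements came from bulk RNA sequencing of whole hearts of mouse embryos at E10.5. Fathers carried Stra8-iCre, a recombinase gene active in male germ cells, and Nipbl Flox/+, where Nipbl encodes a protein that loads cohesin onto chromosomes. The study's design text gives the sperm of these fathers as carrying the working Flox allele or the null FIN allele, and does not speak of sperm with the + allele. Mothers were Isl1 Cre/+, in which a Cre gene occupies and inactivates an allele of Isl1, a transcription factor of heart progenitor cells. The 4 groups were Nipbl +/+; Isl1 +/+ (called wild-type, n = 10), Isl1 +/- (Isl1_het, n = 9), Nipbl +/- (Nipbl_het, n = 9) and Nipbl +/-; Isl1 +/- (double_het, n = 9). Isl1_het and double_het embryos carry Cre at Isl1, and whether a paternal Flox allele was recombined in their Isl1-lineage cells is not given in the sources used here. Nothing in the labels says whether libraries came from separate litters, and p-values measure the spread between these libraries. The description label of each library begins with IVF and a number, and that number is called the set number here. Set 1 held 3 wild-type and 3 Isl1_het libraries only, sets 2, 5 and 6 held all 4 genotypes, and set 7 held double_het replicate 2 alone. With set number in the fit, that library is fitted exactly, so fitted double_het values rest on 8 libraries.

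Library totals ran from 23.4 to 51.0 M counts, and the 35 genes together took 0.159% to 0.255% of them. Nipbl lay below every wild-type library in 8 of 9 Nipbl_het and 8 of 9 double_het libraries. The exception among the former, the library labelled Nipbl_het replicate 2, had 72.4 CPM (counts per M counts of the library, after scaling by the TMM method) against 47.6 to 78.8 CPM in wild-type. It goes against its label and also stood apart in the endothelial genes: its median deviation from each gene's own median was −0.38 on the log2 scale, against −0.26 to 0.25 in the other 36 libraries. The exception in double_het was replicate 2, with Nipbl at 51.5 CPM, inside the wild-type range and below the wild-type mean of 60.0 CPM. Isl1 ran from 5.03 to 13.0 CPM in wild-type and from 4.38 to 10.4 CPM in Isl1_het, so its level does not check the Isl1 labels.

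The endothelial genes were read at very different levels. Per kilobase of exon, using GENCODE M21 lengths on GRCm38, wild-type means ran from 90.8 CPM per kb for Plvap, which encodes the diaphragm protein of endothelial pores, to 0.523 CPM per kb for Robo4, a guidance receptor of vessels. That is a 174-fold span. After Plvap came Eng (41.7 CPM per kb), Cdh5 (31.1), Tie1 (24.8), Ramp2 (23.9), Egfl7 (23.6), Tek (23.3), Icam2 (22.0), Rasip1 (21.8) and Ecscr (17.9). The 3 VEGF receptor genes were further down the order, with Kdr at 10.3 CPM per kb, Flt1 at 3.45 and Flt4 at 1.95. The lowest levels were those of Hhex (1.31 CPM per kb), Acvrl1 (1.04), Aplnr (0.956) and Robo4. Of the 34 pairs of neighbours in this order, 32 had overlapping ranges over the 10 wild-type libraries. The exceptions were Plvap above Eng and Erg above Flt1. Endothelial, erythroid and cardiomyocyte markers were all read in every group, as a whole heart holds these cells, and in bulk tissue fewer cells of a type and less RNA per cell cannot be told apart.

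**Figure D1:**
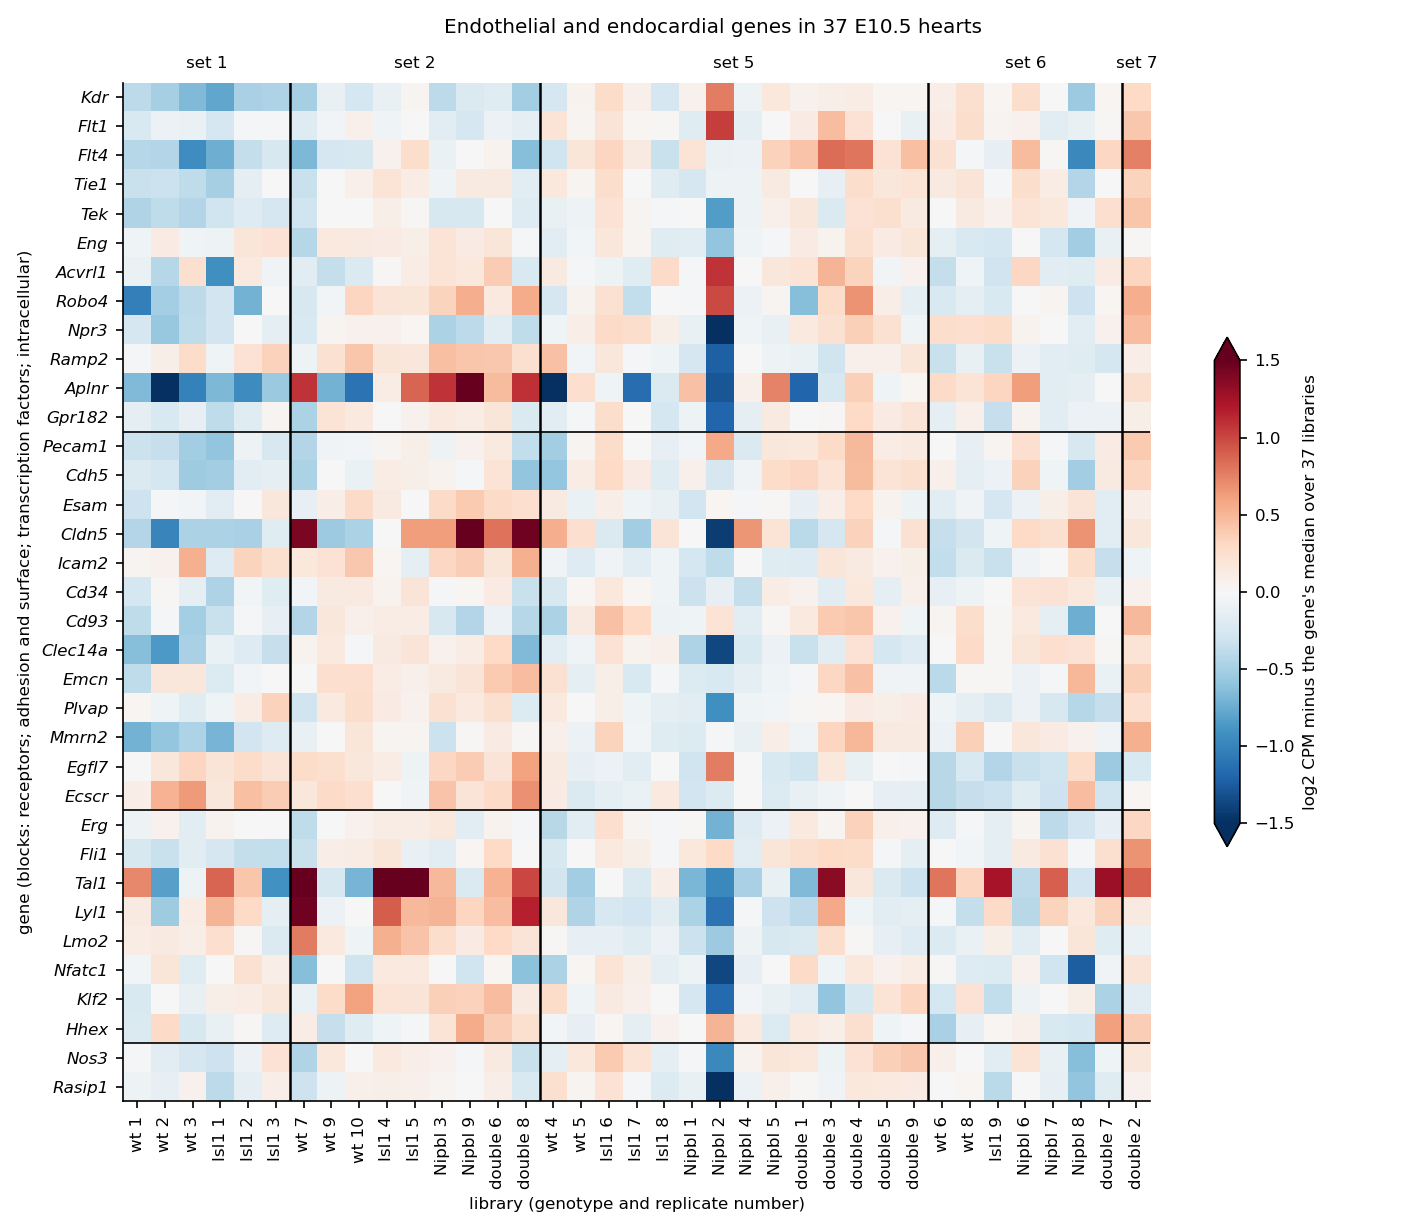
Heat map of the 35 endothelial and endocardial genes (rows) in the 37 libraries (columns, ordered by set number and then genotype), coloured by log2 CPM minus the gene's median over all libraries. The library labelled Nipbl_het replicate 2 stands out with both low and high genes, most receptors are low in set 1, and Tal1, Aplnr and Cldn5 vary most.

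Counting, in each library, how many of the 35 genes lay above their own median over all libraries gave 6 to 21 genes in wild-type (median 13), 7 to 31 in Isl1_het (median 13), 4 to 24 in Nipbl_het (median 12) and 14 to 32 in double_het (median 22). The ranges overlapped between every pair of genotypes. Sets moved the same count: it was 6 to 13 in set 1, which holds no library with Nipbl loss, 10 to 31 in set 2, 4 to 32 in set 5 and 12 to 21 in set 6.

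None of the 35 genes passed the adjusted threshold of 0.05 in any of 8 genotype comparisons (quasi-likelihood test of edgeR, set number as covariate, p-values adjusted over all 15046 genes by Benjamini and Hochberg's method). The background differed between comparisons. Of all genes, 0% passed in Isl1_het against wild-type, 1.71% in Nipbl_het against wild-type, 2.6% in double_het against wild-type, 0.957% in double_het against Isl1_het, 0% in double_het against Nipbl_het and 0% for the interaction. In the effects averaged over the other gene's genotype, 4.02% passed for Nipbl and 0.173% for Isl1. At these rates of at most 4.02%, a count of 0 among 35 genes lies near the background. DESeq2 called 1 endothelial gene, Hhex, for the averaged Nipbl effect, where it called 5.46% of all genes with an adjusted p, and 0 in the other 7 comparisons, where it called 0% to 3.5%.

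At an unadjusted p under 0.05, edgeR gave 0 endothelial genes in Isl1_het against wild-type (5.89% of all genes), 5 in Nipbl_het (15.1%), 7 in double_het (11.6%), 2 in double_het against Isl1_het (7.49%) and 6 in double_het against Nipbl_het (9.01%). The interaction gave 0 (2.73% of all genes), the averaged Nipbl effect 5 (14.9%) and the averaged Isl1 effect 8 (12.2%). All 7 genes in double_het, both in double_het against Isl1_het, all 6 in double_het against Nipbl_het and all 8 of the averaged Isl1 effect were higher in the group with more alleles lost. The 5 in Nipbl_het and the 5 of the averaged Nipbl effect were each 4 higher and 1 lower. Leaving out the library labelled Nipbl_het replicate 2 moved the counts at an unadjusted p under 0.05 to 3 in Isl1_het (11.8% of all genes), 4 in Nipbl_het (14.7%), 6 in double_het (19.2%), 4 in double_het against Isl1_het (11.8%) and 3 in double_het against Nipbl_het (7.71%). They became 1 for the interaction (3.22%), 7 for the averaged Nipbl effect (18.9%) and 6 for the averaged Isl1 effect (16.7%).

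The direction of the changes, whatever their p, was counted next. In double_het against wild-type 29 of the 35 log2 changes were above 0, against 49.5% of all genes, with a median of 0.12. In Isl1_het against wild-type 27 of 35 were above 0 (48.8% of all genes), with a median of 0.06, and in Nipbl_het 17 of 35 (52.2%), with a median of −0.02. These comparisons share their wild-type libraries, and genes read in the same libraries are not independent. With the library labelled Nipbl_het replicate 2 left out, the counts above 0 were 26, 25 and 21. Between the groups with a shared lost allele, 22 of 35 were above 0 in double_het against Isl1_het (51.1% of all genes) and 25 in double_het against Nipbl_het (46.2%). The interaction had 25 above 0 (49.5%), the averaged Nipbl effect 19 (51.7%) and the averaged Isl1 effect 27 (45%).

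The intervals were narrow for most of the genes. The 95% interval of the change lay within 1.5-fold in either direction for 33 of 35 genes in Isl1_het, 29 in Nipbl_het and 28 in double_het, against 79.3%, 73.4% and 73.3% of all genes. The interval of Kdr, for example, ran from 0.884-fold to 1.19-fold in Isl1_het, from 0.882-fold to 1.21-fold in Nipbl_het and from 0.827-fold to 1.15-fold in double_het. Tie1 lay between 0.929-fold and 1.18-fold, 0.854-fold and 1.10-fold, and 0.902-fold and 1.17-fold in the same comparisons. The wide intervals belonged to Tal1, Aplnr, Cldn5 and a few others described next.

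**Figure D2:**
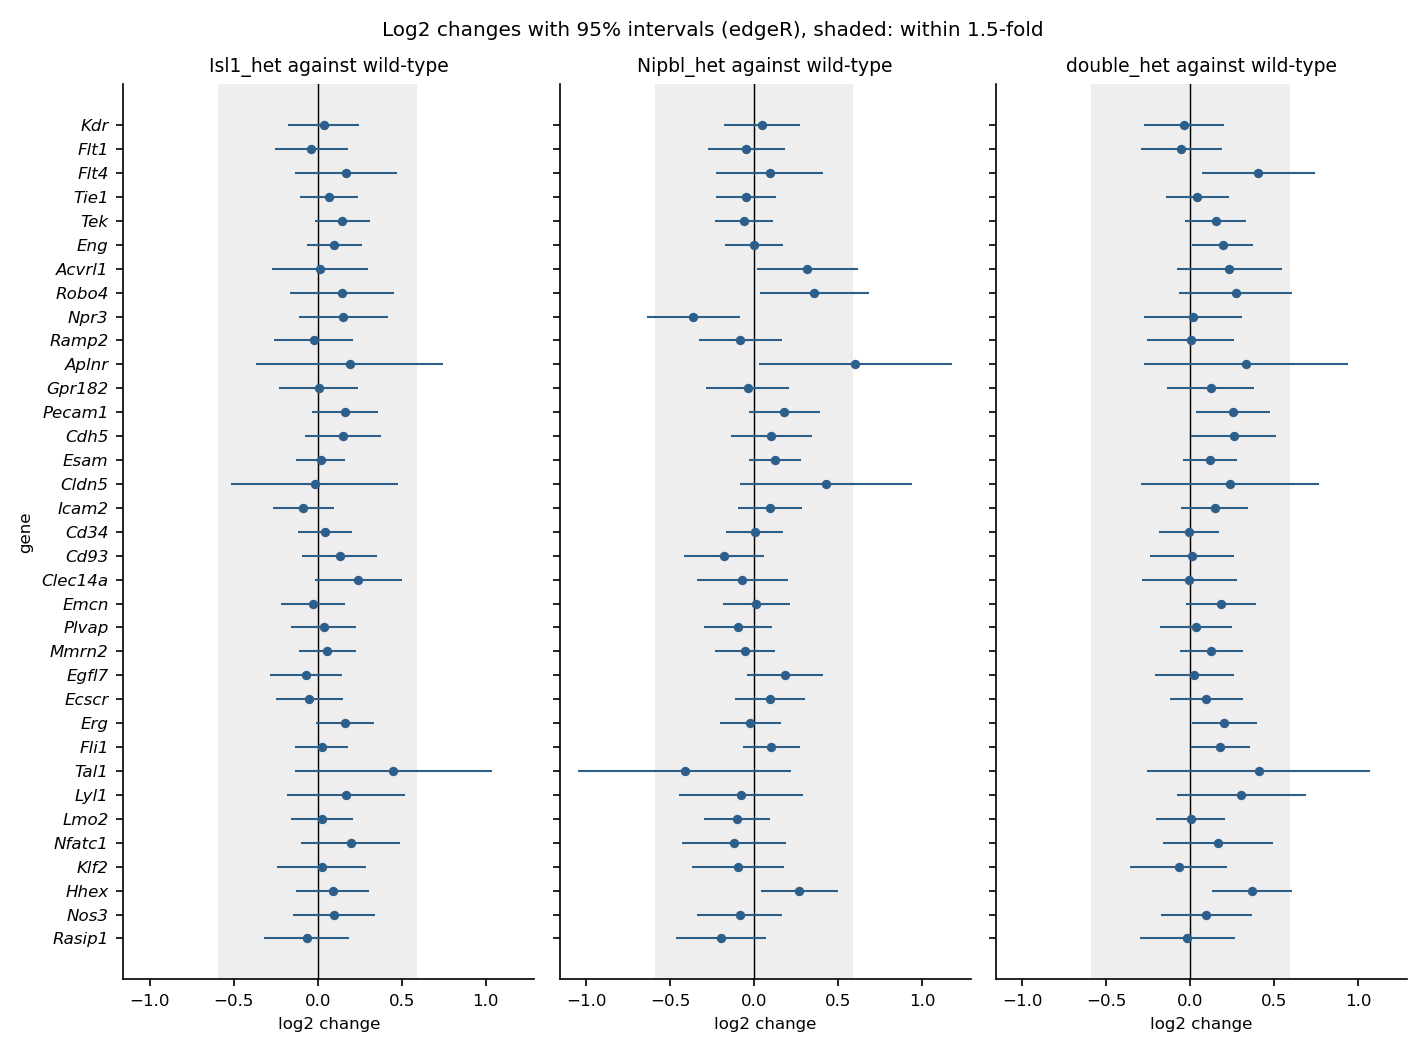
Log2 change of each of the 35 genes against wild-type (points, edgeR) with its 95% interval (bars) in Isl1_het, Nipbl_het and double_het, with the band of 1.5-fold in either direction shaded. Most intervals lie inside the band and those of Tal1, Aplnr and Cldn5 are the widest.

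Among the receptors, Npr3 was the gene with the smallest p in Nipbl_het. Npr3 (chr15:11839896-11907287, GRCm38) encodes the clearance receptor for natriuretic peptides and is strong in endocardium. Its level was 86.0 CPM in the lowest, 127 in the median and 154 in the highest wild-type library. The same 3 values were 105, 134 and 157 CPM in Isl1_het, 34.96, 119 and 133 in Nipbl_het, and 98.0, 142 and 177 in double_het. Only 1 Nipbl_het library, replicate 2, lay below every wild-type library, and the groups otherwise overlapped. The fitted change in Nipbl_het was −0.36 (SE 0.14, adjusted p 0.185, edgeR), and the differences of mean log2 CPM within sets 2, 5 and 6 were −0.39, −0.55 and −0.30. When Nipbl_het replicate 2 was left out, the change was smaller, −0.25, but passed the threshold (adjusted p 0.0357, edgeR). In that fit Npr3 also passed for the averaged Nipbl effect (adjusted p 0.00960, edgeR). Of 50 alternatives, 37 left out 1 library and 13 changed a setting or left out a set. Over these 50 the Nipbl_het change ran from −0.41 to −0.21 and the adjusted p from 0.0357 to 0.485 (edgeR or DESeq2), with 2 past the threshold. In double_het the change of Npr3 against wild-type was 0.01 (SE 0.14), and against Nipbl_het it was 0.37 (SE 0.14, adjusted p 0.492, edgeR), with 0.15, 0.72 and 0.10 within sets 2, 5 and 6. The latter was 0.22 without Nipbl_het replicate 2.

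Flt4 (chr11:49609263-49652739) encodes the receptor for VEGF-C, used by veins and lymphatic vessels and by the early endocardium. Its lowest, median and highest levels were 9.94, 15.8 and 22.4 CPM in wild-type, 11.4, 17.6 and 23.8 in Isl1_het, 9.70, 19.1 and 26.5 in Nipbl_het, and 12.3, 25.7 and 34.3 in double_het. Of the 9 double_het libraries, 6 lay above every wild-type library, and the ranges overlapped. The change in double_het was 0.40 (SE 0.17, adjusted p 0.282, edgeR), or 1.32-fold with a 95% interval of 1.05 to 1.67. Within sets 2, 5 and 6 it was 0.10, 0.61 and 0.21, so set 5, where 5 of the double_het libraries lie, gave the largest difference. Over 50 alternatives the double_het change ran from 0.11 to 0.67, with adjusted p from 0.0165 to 1.00 (edgeR or DESeq2), and 3 passed: no set term, the replicate block and 2 surrogate variables. Against Isl1_het the change was 0.24 (SE 0.17) with 0.15 without Isl1_het replicate 8, and took the other sign, −0.11, without set 5. Against Nipbl_het it was 0.31 (SE 0.16, adjusted p 0.564, edgeR), and the averaged Isl1 effect was 0.24 (SE 0.11, adjusted p 0.384, edgeR).

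Aplnr encodes the apelin receptor of endothelial progenitors and veins. It was low, at 1.39, 2.53 and 8.83 CPM in the lowest, median and highest wild-type library, 1.83, 3.53 and 7.61 in Isl1_het, 1.67, 5.61 and 11.7 in Nipbl_het, and 1.77, 4.21 and 8.90 in double_het. The 4 ranges overlapped almost fully, and 1 library each of Nipbl_het and double_het exceeded every wild-type library. Its change was the largest of the 35 in Nipbl_het, 0.60 (SE 0.28, adjusted p 0.305, edgeR), but within sets 2, 5 and 6 it was 1.53, 0.63 and −0.14. In Isl1_het it was 0.19 (SE 0.27) and in double_het 0.33 (SE 0.30), and the interaction was −0.46 (SE 0.39, adjusted p 0.999, edgeR). Without wild-type replicate 10 the Isl1_het and double_het changes were 0.08 and 0.20, and without wild-type replicate 5 they were 0.32 and 0.52.

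Acvrl1, the type 1 partner of Eng, had lowest, median and highest levels of 3.58, 4.41 and 5.70 CPM in wild-type, 2.54, 4.65 and 5.90 in Isl1_het, 4.26, 5.41 and 10.3 in Nipbl_het, and 4.11, 5.57 and 6.88 in double_het. The 10.3 CPM is again the library labelled Nipbl_het replicate 2. The change of Acvrl1 in Nipbl_het was 0.32 (SE 0.15, adjusted p 0.303, edgeR) with that library and 0.19 without it. The averaged Nipbl effect on Acvrl1 was 0.27 (SE 0.11, adjusted p 0.228, edgeR), and Acvrl1 was above wild-type within each of sets 2, 5 and 6 in Nipbl_het (0.43, 0.26 and 0.20) and in double_het (0.32, 0.16 and 0.34). Robo4 ran at 1.54, 2.72 and 4.03 CPM in wild-type, 1.94, 3.21 and 3.77 in Isl1_het, 2.57, 3.31 and 6.45 in Nipbl_het, and 2.04, 3.55 and 5.17 in double_het. The change of Robo4 in Nipbl_het was 0.36 (SE 0.16, adjusted p 0.27, edgeR) and the interaction −0.24 (SE 0.22, adjusted p 0.999, edgeR), which became 0.23 and −0.09 without that library. Both genes had overlapping groups.

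The remaining receptors showed smaller values. Eng was higher in double_het by 0.19 (SE 0.09, adjusted p 0.378, edgeR) and 1.00-fold of wild-type in Nipbl_het, with a 95% interval of 0.888-fold to 1.13-fold. The averaged Isl1 effect on Tek was 0.18 (SE 0.06, adjusted p 0.244, edgeR). Kdr illustrates how set number enters: its double_het median of 109 CPM was above the wild-type median of 89.1 CPM, yet the change fitted with set number was −0.04 (SE 0.12).

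Among the junction and surface genes, the pair of endothelial adhesion molecules Cdh5 and Pecam1 stood high in most double_het libraries. Cdh5 had lowest, median and highest levels of 99.9, 132 and 161 CPM in wild-type and of 99.1, 173 and 208 CPM in double_het, with 8 of 9 double_het libraries above every wild-type library. Pecam1 ran at 72.7, 89.7 and 108 CPM in wild-type and at 81.3, 116 and 146 CPM in double_het, again with 8 of 9 above every wild-type library. The ninth was the same library for both genes, double_het replicate 8. Isl1_het and Nipbl_het lay between, with medians of 141 and 147 CPM for Cdh5 and of 105 and 103 CPM for Pecam1.

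Once set number was in the fit, the change in double_het was 0.26 for Cdh5 (SE 0.12, adjusted p 0.415, edgeR) and 0.25 for Pecam1 (SE 0.11, adjusted p 0.319, edgeR). Within sets 2, 5 and 6 the difference was −0.004, 0.53 and 0.18 for Cdh5 and 0.07, 0.47 and 0.19 for Pecam1. Set 1, which holds 3 of the 10 wild-type libraries and no double_het library, had the lowest set median of both genes, 127 CPM for Cdh5 and 83.0 CPM for Pecam1. Both genes passed the threshold in a fit with no set term, so their call depends on that term.

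**Figure D3:**
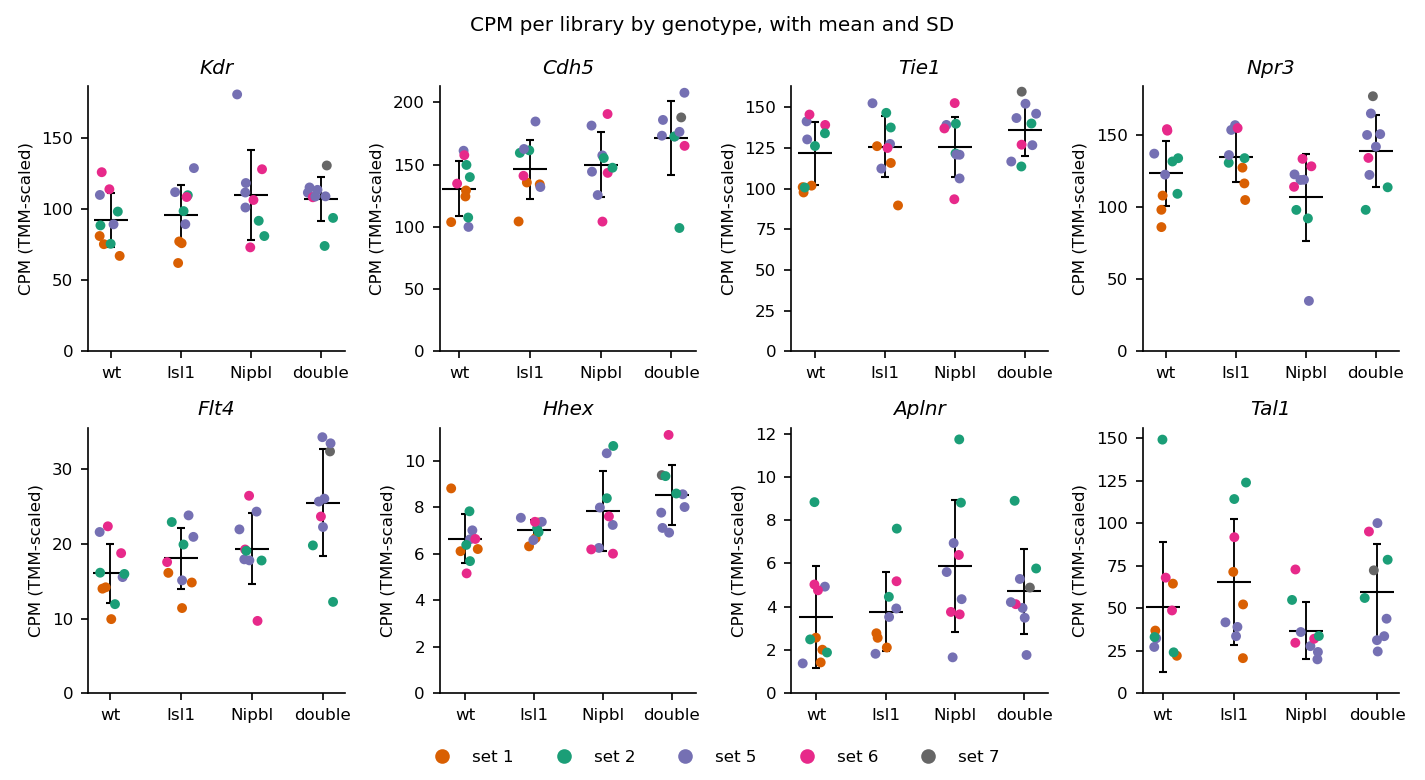
CPM of 8 genes in each library, grouped by genotype, with points coloured by set number and the group mean and SD as bars. For Cdh5, 8 of 9 double_het libraries lie above every wild-type library, while for Kdr, Tie1 and Tal1 the groups overlap widely.

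Cldn5, the claudin of endothelial tight junctions, was low in these hearts, with lowest, median and highest levels of 1.85, 2.85 and 10.1 CPM in wild-type, 2.59, 3.29 and 5.84 in Isl1_het, 1.37, 4.60 and 12.3 in Nipbl_het, and 2.82, 4.23 and 10.4 in double_het. The groups overlapped, and no direction was shared by the sets: the Nipbl_het difference within sets 2, 5 and 6 was 1.03, −0.54 and 0.71. The fitted change in Nipbl_het was 0.43 (SE 0.25, adjusted p 0.433, edgeR), and the averaged Nipbl effect was 0.34 (SE 0.19, adjusted p 0.437, edgeR). Without Nipbl_het replicate 9 the Nipbl_het change was 0.28, and over 50 alternatives it ran from 0.22 to 0.83, with 1 past the threshold.

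Clec14a, a lectin-like surface protein of sprouting vessels, ran at 6.64, 11.8 and 14.7 CPM in wild-type, 9.47, 12.5 and 14.0 in Isl1_het, 4.64, 12.6 and 14.4 in Nipbl_het, and 7.61, 10.7 and 14.9 in double_het. Its Isl1_het change was 0.24 (SE 0.13, adjusted p 0.835, edgeR), with 0.45, 0.10, 0.23 and −0.12 within sets 1, 2, 5 and 6. Against Isl1_het the double_het change was −0.25 (SE 0.14, adjusted p 0.833, edgeR), and −0.17 without double_het replicate 8. Icam2, an adhesion molecule of resting endothelium, differed in that comparison by 0.23 (SE 0.10, adjusted p 0.501, edgeR), but by 0.41, 0.15 and −0.01 within sets 2, 5 and 6.

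Rasip1, an effector of Ras-like proteins needed for vessel lumens, ran at 56.3, 70.5 and 82.8 CPM in wild-type, 53.0, 68.7 and 81.4 in Isl1_het, 24.7, 66.0 and 73.7 in Nipbl_het, and 59.97, 73.3 and 78.3 in double_het. Its interaction was 0.25 (SE 0.18, adjusted p 0.999, edgeR). The 24.7 CPM is the library labelled Nipbl_het replicate 2, without which the interaction was 0.13. In GENCODE M21, 20.4% of Rasip1 exon bases are shared with Izumo1 on the same strand, and 33.4% of Ramp2 exon bases with Vps25. Nos3 shares 25.2% of its exon bases with the antisense gene Gm15587, Egfl7 7.37% with Gm20532 on the same strand, and Npr3 3.42% with Gm5144 on the other strand. How reads on such bases were assigned is not given in the sources used here, so the counts of these genes, and of the others of the 35 that share exon bases with a neighbour, are uncertain.

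Among the transcription factors, Hhex came closest to the threshold. Hhex (chr19:37434810-37440731) encodes a homeodomain protein of early endothelium and endocardium, and also of endoderm. Its lowest, median and highest levels were 5.16, 6.51 and 8.81 CPM in wild-type, 6.32, 7.10 and 7.55 in Isl1_het, 6.01, 7.61 and 10.6 in Nipbl_het, and 6.91, 8.56 and 11.1 in double_het. All 9 double_het libraries lay above the wild-type mean and 3 above every wild-type library. The change in double_het was 0.37 (SE 0.12, adjusted p 0.101, edgeR), or 1.29-fold with a 95% interval of 1.09 to 1.52, and within sets 2, 5 and 6 it was 0.44, 0.17 and 0.92.

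The Hhex call in double_het turned on the setting. Over 50 alternatives its change ran from 0.24 to 0.58 and its adjusted p from 0.0297 to 0.475, with 4 past the threshold. Those 4 were a fit with no set term, a fit with 2 surrogate variables, and the fits without wild-type replicate 2 (0.40, adjusted p 0.0496) or without Nipbl_het replicate 2 as labelled (0.37, adjusted p 0.0366). Nipbl_het gave 0.27 (SE 0.11, adjusted p 0.241, edgeR), Isl1_het 0.09 (SE 0.11), and double_het against Isl1_het 0.28 (SE 0.12, adjusted p 0.476, edgeR). The averaged Nipbl effect was 0.27 (SE 0.09, adjusted p 0.0671, edgeR), the smallest adjusted p of any endothelial gene in the 8 comparisons. Hhex is also active in liver and endoderm. The mean log2 CPM of 7 tested marker genes of these tissues ran from −1.17 to 0.78 in wild-type, −1.17 to 0.66 in Isl1_het, −0.88 to 3.504 in Nipbl_het and −1.11 to 1.81 in double_het. The highest libraries of that list, Nipbl_het replicate 9 at 3.504 and double_het replicate 7 at 1.81, were also the highest Hhex libraries of their groups, at 10.6 and 11.1 CPM. In wild-type the lowest Hhex level, 5.16 CPM, lay in set 6. The 2 wild-type libraries of set 6 had the highest levels of that list in wild-type, at 0.78 and 0.18. Without double_het replicate 7 the Hhex change was 0.24 in double_het and 0.17 in double_het against Isl1_het. The part of these tissues in the Hhex values was not tested.

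The ETS genes Erg and Fli1 did not pass in any of the 8 comparisons. Erg, whose level spread little, was higher by 0.20 in double_het (SE 0.09, adjusted p 0.394, edgeR), and its averaged Isl1 effect was 0.19 (SE 0.06, adjusted p 0.24, edgeR), or 1.14-fold with a 95% interval of 1.05 to 1.25. Fli1 was higher by 0.18 in double_het (SE 0.09, adjusted p 0.418, edgeR), and 6 of its 9 libraries lay above every wild-type library. Nfatc1, the calcium-dependent factor of endocardium that forms valves, ran at 31.2, 45.3 and 55.2 CPM in wild-type, 42.3, 52.1 and 57.3 in Isl1_het, 18.8, 44.6 and 51.2 in Nipbl_het, and 31.7, 51.1 and 59.7 in double_het. Its groups overlapped, and its Isl1_het change was 0.20 (SE 0.14, adjusted p 0.853, edgeR), with 0.12, 0.46, 0.27 and −0.11 within sets 1, 2, 5 and 6.

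Tal1 and Lyl1 were the most variable of the transcription factors. Tal1 (chr4:115056426-115071755) encodes a basic helix-loop-helix factor of endocardial and blood progenitors. Its lowest, median and highest levels were 22.1, 35.03 and 149 CPM in wild-type, 20.7, 52.3 and 124 in Isl1_het, 20.02, 32.1 and 72.8 in Nipbl_het, and 24.7, 56.1 and 100.1 in double_het. Every group spanned more than 3.6-fold, and all ranges overlapped. Lyl1, its close relative, ran at 18.1, 25.9 and 71.8 CPM in wild-type, 21.4, 31.9 and 49.1 in Isl1_het, 12.1, 25.8 and 37.3 in Nipbl_het, and 20.004, 28.8 and 58.8 in double_het.

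Tal1 had the largest change of the 35 genes in 4 of the 8 comparisons. It was 0.45 in Isl1_het (SE 0.29, adjusted p 0.848, edgeR), 0.41 in double_het (SE 0.33, adjusted p 0.709, edgeR), 0.82 in double_het against Nipbl_het (SE 0.31, adjusted p 0.498, edgeR) and 0.63 for the averaged Isl1 effect (SE 0.21, adjusted p 0.249, edgeR). In Nipbl_het it was −0.41 (SE 0.31, adjusted p 0.554, edgeR), and the interaction was 0.37 (SE 0.42, adjusted p 0.999, edgeR). Single libraries moved these values by more than 1.5 times. Without wild-type replicate 7, which had the 149 CPM, the Isl1_het change was 0.73 and the Nipbl_het change −0.13, and without double_het replicate 3 the double_het change was 0.15, the change against Nipbl_het 0.53 and the interaction 0.07. Lyl1 differed by 0.38 between double_het and Nipbl_het (SE 0.18, adjusted p 0.547, edgeR), and its averaged Isl1 effect was 0.27 (SE 0.13, adjusted p 0.387, edgeR).

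The blood content of the hearts moved with these genes. Of 13 listed erythroid genes 10 were tested (globins, Klf1, Alas2 and others), and together the list took 0.0471% to 9.10% of a library's counts. Its mean log2 CPM ran from 4.41 to 9.76 in wild-type, 3.28 to 9.07 in Isl1_het, 3.00 to 7.96 in Nipbl_het and 4.19 to 8.74 in double_het. The median change of the erythroid list was 0.62 in Isl1_het, −0.75 in Nipbl_het, 0.71 in double_het and 1.51 in double_het against Nipbl_het, with 0 genes called in each, and each has the sign of the change of Tal1. In double_het against Isl1_het the signs differed, with a list median of 0.088 and a Tal1 change of −0.04 (SE 0.33). With the erythroid level added to the fit, the Tal1 changes were 0.15, −0.02, 0.11 and 0.12 in Isl1_het, Nipbl_het, double_het and double_het against Nipbl_het. Tal1 is itself a gene of blood cells, so in these whole hearts a change of Tal1 and a change of blood content cannot be told apart.

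A test of the erythroid level itself, added after the data were seen and with genotype and set number in the same fit, called 3 of the 35 endothelial genes, against 3.25% of all genes (2.88% higher with it). They were Tal1, Lyl1 and Lmo2, all higher where erythroid genes were higher. For each unit of log2 erythroid level Tal1 was higher by 0.43 (SE 0.03, adjusted p 2.86e-12, edgeR), Lyl1 by 0.22 (SE 0.03, adjusted p 8.62e-07, edgeR) and Lmo2, which encodes the protein that bridges Tal1 to GATA factors, by 0.10 (SE 0.02, adjusted p 5.22e-04, edgeR). Within sets 1, 2, 5 and 6 the slope was 0.40, 0.57, 0.37 and 0.49 for Tal1, 0.16, 0.28, 0.24 and 0.19 for Lyl1 and 0.06, 0.14, 0.12 and 0.01 for Lmo2. The other 32 genes did not pass, with slopes from −0.06 for Robo4 to 0.16 for Aplnr. The slope of Cdh5 was −0.04 (SE 0.03, adjusted p 0.51, edgeR).

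**Figure D4:**
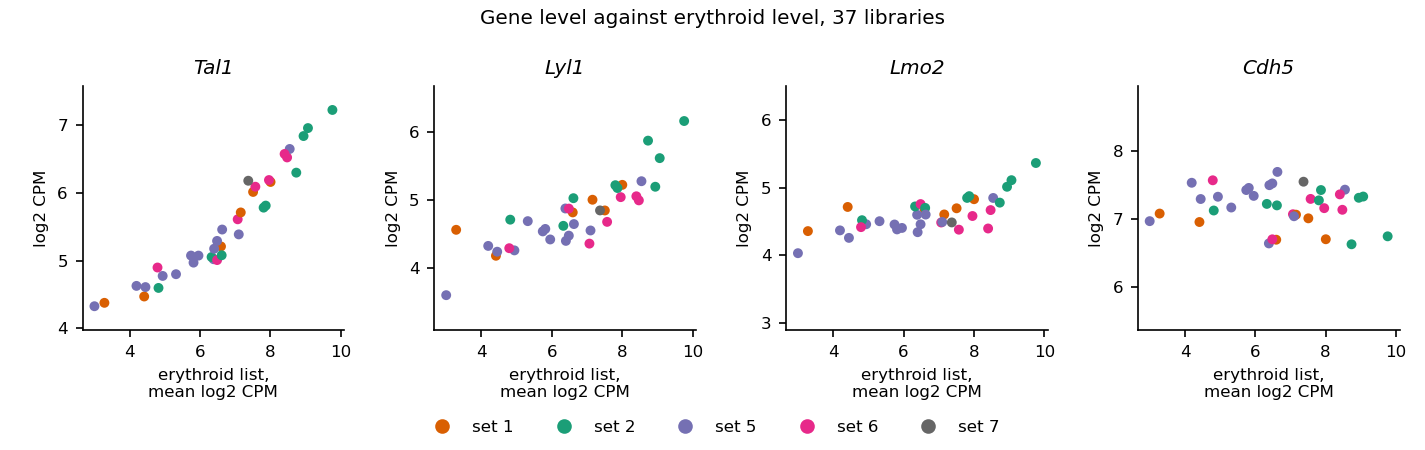
Log2 CPM of Tal1, Lyl1, Lmo2 and Cdh5 in each library (points, coloured by set number) against the mean log2 CPM of the tested erythroid genes. Tal1 and Lyl1 climb with the erythroid level, Lmo2 less so, and Cdh5 shows no such slope.

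The sequences before the start sites of Tal1 and Lyl1, the pair that followed the erythroid level most steeply, are shown beside those of the receptor genes Eng and Flt1, which did not pass in that test. Each is the 250 bases before a RefSeq start site (GRCm38.p6), the first of 2 listed for Tal1 and the single one listed for the others, written 5′ to 3′ on the gene's own strand. Capitals mark matches, on either strand, to AGGAAG (or CTTCCT), letters found in ETS factor sites, AGATAA (or TTATCT), letters found in GATA factor sites, and CATCTG (or CAGATG), an E-box of the kind bound by Tal1-like factors. No marked match overlaps another.
Tal1, chr4:115056176-115056425, plus strand: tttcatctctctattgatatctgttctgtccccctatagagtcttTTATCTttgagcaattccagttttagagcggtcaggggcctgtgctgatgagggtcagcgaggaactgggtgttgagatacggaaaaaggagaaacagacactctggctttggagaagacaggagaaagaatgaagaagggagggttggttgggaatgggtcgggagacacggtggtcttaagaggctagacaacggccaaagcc
Lyl1, chr8:84701207-84701456, plus strand: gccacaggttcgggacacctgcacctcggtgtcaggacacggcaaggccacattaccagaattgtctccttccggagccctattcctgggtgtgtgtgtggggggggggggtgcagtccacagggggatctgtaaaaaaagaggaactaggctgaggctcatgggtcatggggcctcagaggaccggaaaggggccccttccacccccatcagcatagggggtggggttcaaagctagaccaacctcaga
Eng, chr2:32646345-32646594, plus strand: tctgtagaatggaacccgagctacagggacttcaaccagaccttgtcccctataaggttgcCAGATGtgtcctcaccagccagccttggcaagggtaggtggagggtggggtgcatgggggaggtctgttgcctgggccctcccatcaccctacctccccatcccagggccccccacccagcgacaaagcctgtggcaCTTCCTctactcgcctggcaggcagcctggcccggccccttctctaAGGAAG
Flt1, chr5:147726012-147726261, minus strand: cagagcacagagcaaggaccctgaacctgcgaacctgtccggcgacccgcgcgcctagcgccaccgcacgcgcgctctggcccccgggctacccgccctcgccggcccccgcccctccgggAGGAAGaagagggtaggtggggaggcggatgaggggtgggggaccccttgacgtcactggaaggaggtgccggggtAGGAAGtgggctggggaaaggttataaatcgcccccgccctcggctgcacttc

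In these 250 bases Tal1 holds 1 match, the GATA letters at −205. With the 50 bases from the start site on it also holds the E-box letters at +11, and the same 300-base window at its other start site holds 0 matches. Lyl1 holds 0 matches, which says only that these letters are not in this window. Eng holds ETS letters at −52 and −6 and the E-box letters at −189, and Flt1 holds ETS letters at −129 and −53. Over the RefSeq windows of 300 bases, which add 50 bases from the start site on, 19 of the 35 genes had an entry. Of these 19, 10 held the ETS letters (52.6%, against 38.4% of 27025 genes), 3 the GATA letters (15.8% against 12.7%) and 5 the E-box letters (26.3% against 19.2%). These are matches of letters and not measured binding sites.

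The same fit also tested the endothelial genes for association with set number. Of the 35 genes, 20 (57.1%) were associated with set number at an adjusted p under 0.05 (edgeR), against 38.2% of all genes. Lists of other cell types were associated with it too, with 10 of 10 erythroid, 6 of 7 epicardial, 8 of 12 cardiomyocyte and 3 of 16 other blood cell genes passing, and the 4 further endothelial lists stood at 33.3% to 45.2%. The part of these cell types in the set differences was not tested. The labels write IVF before the set number and do not spell out what it marks. Set 1 gave the lowest values for many surface genes and receptors. Against set 1, set 2 had 5 of the genes higher (4.28% of all genes) and 0 lower (2.57%), set 5 had 9 higher (11.6%) and 2 lower (10.6%), and set 6 had 8 higher (14.8%) and 3 lower (11.9%).

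Mmrn2, which encodes an extracellular matrix protein of vessels, showed this most plainly. Its lowest, median and highest levels were 28.6, 32.6 and 41.0 CPM in the 6 libraries of set 1, 37.5, 47.4 and 52.9 in set 2, 40.6, 47.6 and 65.9 in set 5 and 44.1, 48.8 and 60.2 in set 6. The range of set 1 overlaps those of sets 2 and 5 only at its upper end and lies below that of set 6. The fitted differences from set 1 were 0.48, 0.54 and 0.60 for sets 2, 5 and 6, with SE of 0.10, 0.10 and 0.11, and the test over all sets gave an adjusted p of 4.33e-04 (edgeR).

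Kdr ran at 62.3, 75.9 and 81.3 CPM in set 1, 74.3, 92.0 and 110.0 in set 2, 89.5, 112 and 181 in set 5 and 73.3, 109 and 128 in set 6, and every set 5 library lay above every set 1 library. Its difference between sets 5 and 1 was 0.65 (SE 0.13) and its adjusted p over all sets 0.00102 (edgeR). Against set 1, Tek was higher in set 6 by 0.51, Clec14a in set 6 by 0.70, Flt4 in set 5 by 0.63 and Npr3 in set 6 by 0.59. In set 2, Aplnr was higher than in set 1 by 1.37 and Cldn5 by 1.13, and their CPM in set 2 ran from 1.89 to 11.7 and from 2.55 to 12.3.

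Other genes were lower in the later-numbered sets. Ecscr, a small membrane protein of endothelial cells, had the smallest p, with an adjusted p of 3.45e-04 over all sets (edgeR). It ran at 30.2, 37.8 and 44.0 CPM in set 1, 27.3, 33.6 and 45.6 in set 2, 23.2, 26.0 and 31.2 in set 5 and 21.1, 22.8 and 39.0 in set 6, and was lower in set 6 than in set 1 by 0.64 on the log2 scale. Against set 2, 12 of the genes were lower in set 5 (16.7% of all genes) and 2 higher (16.7%), and 9 were lower in set 6 (9.71%) and 1 higher (13.6%). Among those lower in set 6 were Egfl7 (−0.56), Ramp2 (−0.47) and Icam2 (−0.39), and among those lower in set 5 were Tal1 (−1.01), Lyl1 (−0.87) and Lmo2 (−0.44). Sets 5 and 6 did not differ in any of the 35 genes at the adjusted threshold (0.399% of all genes were higher in set 6 and 0.532% lower). The count of 20 changed with the libraries used: without set 1, 8 genes were associated with set number (22.8% of all genes in that fit), without set 2, 5 were (9.46%), without set 5, 22 were (43.6%), without set 6, 15 were (31.3%), and without wild-type replicate 6, a set 6 library, 13 were (34.9%).

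Gene length moved with the differences of sets 5 and 6 from sets 1 and 2 over the whole table, which was examined after the data were seen. It did not in set 2 against set 1, where the medians of all genes were −0.01, −0.004 and −0.001 for under 2 kb, 2 to 4 kb and over 4 kb of exon, and those of the endothelial genes 0.20, 0.19 and 0.22. In set 6 against set 1 the median log2 difference was −0.30 for genes with under 2 kb of exon, −0.10 for those of 2 to 4 kb and 0.12 for those over 4 kb. The endothelial genes, with 6, 10 and 19 in these classes, had medians of −0.13, −0.04 and 0.25. In set 6 against set 2 the medians were −0.30, −0.12 and 0.10 for all genes and −0.42, −0.19 and 0.05 for the endothelial genes. The part of length in the set differences of single genes was not tested. The other 15 genes were not associated with set number, among them Erg (adjusted p 0.619), Hhex (0.687), Nfatc1 (0.845), Rasip1 (0.885) and Cdh5 (0.288, all edgeR).

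**Figure D5:**
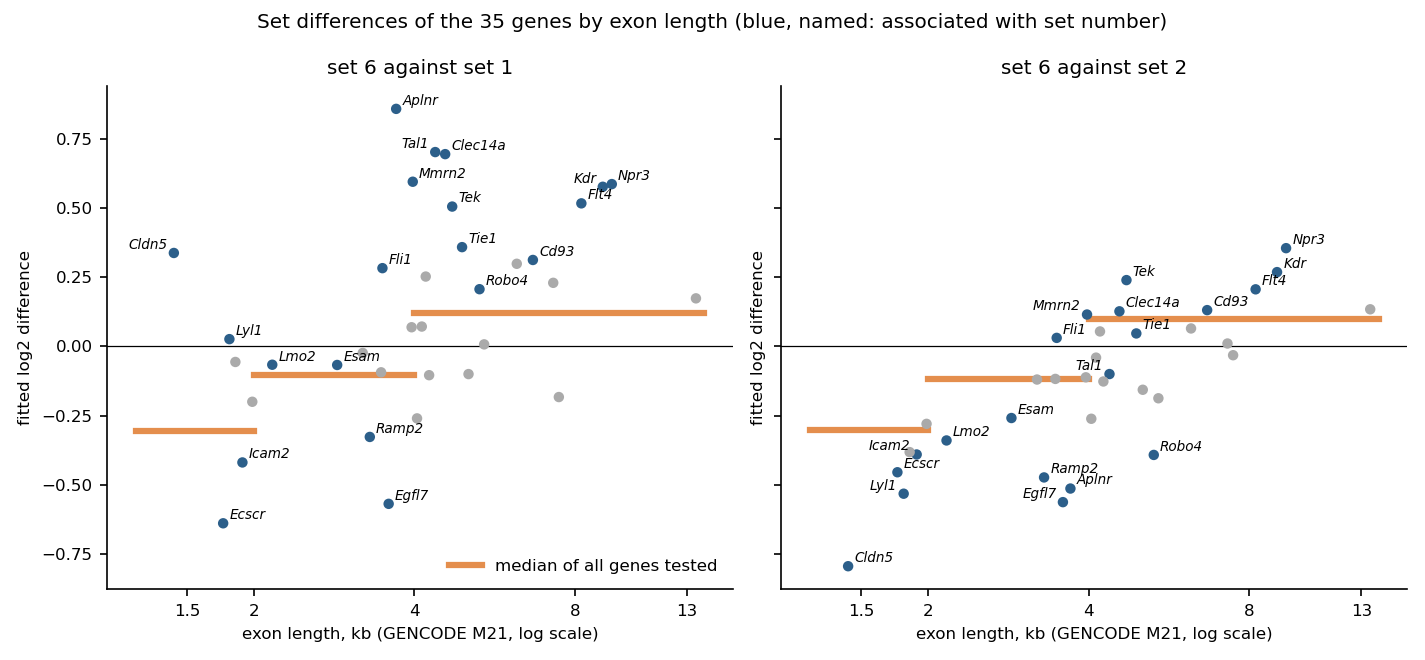
Fitted log2 difference of each of the 35 genes between sets 6 and 1 and between sets 6 and 2 against exon length in kb (log axis), with the genes associated with set number in blue and named, and the median of all genes in 3 length classes as lines. The lines climb from −0.30 for short genes to 0.12 and 0.10 for long genes.

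Some endothelial genes outside the 35, taken from 4 further lists, were called between genotypes, and these counts are a description set beside the share of all genes called. These lists were 27 ligands and coreceptors, 20 transcription factors of which 19 were tested, 12 arterial and Notch pathway genes and 31 other markers, and Sox17, S1pr1 and Gja4 stand on more than 1 of them. In Isl1_het, double_het against Nipbl_het, the interaction and the averaged Isl1 effect none of them was called, against the shares of all genes given above. In Nipbl_het 1 ligand or coreceptor gene and 1 transcription factor gene were lower and 1 other marker was higher, against 1.71% of all genes. In double_het 1 ligand or coreceptor gene and 1 arterial gene were lower, 4 other markers were higher, and the transcription factor gene among those called, Sox17, is also one of the 4 markers, against 2.60% of all genes. In double_het against Isl1_het 1 transcription factor gene was lower, against 0.957%. For the averaged Nipbl effect 7 of these genes were called, 4 higher and 3 lower, against 4.02% of all genes. Of the 50 alternatives given for the calls below, 37 left out only 1 library and so share nearly all libraries with the main fit.

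Cdh13 encodes T-cadherin, a surface cadherin of vessels. Its lowest, median and highest levels were 9.27, 16.2 and 21.4 CPM in wild-type, 14.1, 17.1 and 21.6 in Isl1_het, 17.5, 23.7 and 25.9 in Nipbl_het, and 21.4, 23.5 and 29.1 in double_het. All 9 double_het and 6 of 9 Nipbl_het libraries lay above every wild-type library. It rose by 0.41 in Nipbl_het (SE 0.09, adjusted p 0.0149, edgeR) and by 0.46 in double_het (SE 0.10, adjusted p 0.00489, edgeR). Within sets 2, 5 and 6 the differences were 0.28, 0.27 and 0.57 in Nipbl_het and 0.32, 0.44 and 0.43 in double_het. In Nipbl_het the call was lost when any of sets 1, 2, 5 or 6 was left out, with adjusted p from 0.00108 to 0.147 over 50 alternatives and 46 past the threshold, and in double_het when set 5 was left out, with adjusted p from 4.80e-05 to 0.257 and 49 past the threshold.

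Sox17 encodes a transcription factor of arterial endothelium and endocardium, and also of endoderm. Its lowest, median and highest levels were 3.53, 4.42 and 4.91 CPM in wild-type and 4.64, 5.87 and 11.8 in double_het, with 8 of 9 double_het libraries above every wild-type library. It rose in double_het by 0.61 (SE 0.16, adjusted p 0.0289, edgeR), with 0.40, 0.38 and 1.60 within sets 2, 5 and 6. The set 6 value rests on double_het replicate 7, the highest library, without which the change was 0.38 and no longer called (adjusted p 0.207, edgeR). The call was lost as well without wild-type replicate 4, 6 or 8 or double_het replicate 6 or 9, at adjusted p of 0.0505 to 0.0738 (edgeR). Adjusted p ran from 0.00256 to 0.323 over 50 alternatives, with 41 past the threshold, and the call was also lost without set 1, 2 or 6. Sox17 stands on the endoderm list as well, whose levels are given above beside Hhex, and their part in the result was not tested.

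Vwf, which encodes the clotting factor stored in endothelial cells, ran at 47.97 to 100.8 CPM in wild-type and 82.4 to 142 CPM in double_het, with 5 of 9 libraries above every wild-type library. It rose by 0.50 (SE 0.12, adjusted p 0.0211, edgeR), with 0.45, 0.57 and 0.08 within sets 2, 5 and 6, and adjusted p over 50 alternatives from 0.00103 to 0.631, 44 of them past the threshold. Procr, the endothelial protein C receptor gene, rose by 0.41 in double_het (SE 0.10, adjusted p 0.0224, edgeR), where 2 of 9 libraries exceeded every wild-type library, with 0.30, 0.52 and 0.19 within sets. Its adjusted p ran from 0.00139 to 0.478 over 50 alternatives, with 39 past the threshold. Both calls were lost without set 1, 2 or 5, and that of Procr also with no set term. Vwf lost its call without wild-type replicate 4 or double_het replicate 4 or 6, at adjusted p of 0.0542 to 0.0560 (edgeR). Procr lost its call without wild-type replicate 5 or 8 or double_het replicate 1, 4, 5, 8 or 9, at adjusted p of 0.05002 to 0.0923 (edgeR).

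Among the genes that fell, Tgfbr3, which encodes the coreceptor betaglycan of TGF-beta ligands, fell, in log2 units, by 0.42 in Nipbl_het (SE 0.10, adjusted p 0.0141, edgeR) and by 0.38 in double_het (SE 0.10, adjusted p 0.0325, edgeR). Its raw medians hardly differed, at 45.6 CPM in wild-type, 45.8 in Nipbl_het and 46.95 in double_het, and within sets 2, 5 and 6 the differences were −0.62, −0.09 and −0.60 in Nipbl_het and −0.52, −0.15 and −0.39 in double_het. The Nipbl_het call was lost with no set term (−0.23, adjusted p 0.331), with the replicate block and without set 2 or 6, in a range of 6.90e-05 to 0.378 over 50 alternatives, of which 46 passed. In double_het 38 of 50 passed, 32 of them fits without 1 library, with adjusted p from 1.22e-04 to 0.588 (edgeR or DESeq2). The call was lost with no set term, the replicate block or the erythroid level added, and without any of sets 1, 2, 5 and 6. It was also lost without wild-type replicate 9 or 10 or without double_het replicate 6, 8 or 9, at adjusted p of 0.0501 to 0.0816. Epas1, the gene of a factor that responds to low oxygen, fell by 0.39 in Nipbl_het (SE 0.09, adjusted p 0.0158, edgeR), with −0.21, −0.43 and −0.54 within sets and 8 of 9 libraries below the wild-type mean. Its adjusted p ran from 4.26e-04 to 0.169 (edgeR or DESeq2), with 44 of 50 past the threshold, 37 of them fits without 1 library. The settings that lost the call included no set term and leaving out any of sets 1, 2, 5 and 6. Hey2, a Notch target of arteries that is also strong in ventricular muscle, fell by 0.42 in double_het (SE 0.11, adjusted p 0.036, edgeR), with −0.57, −0.24 and −0.33 within sets. Its adjusted p ran from 5.21e-04 to 0.358 (edgeR or DESeq2), with 35 of 50 past the threshold, 29 of them fits without 1 library. Over these alternatives the Hey2 change ran from −0.50 to −0.31. It lost its call with no set term, the replicate block or the erythroid level added, and without any of sets 1, 2, 5 and 6. It also lost it, at adjusted p of 0.0505 to 0.0835, without wild-type replicate 9 or 10, Isl1_het replicate 1 or any of double_het replicates 4 to 8.

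Lyve1, a hyaluronan receptor gene of lymphatic vessels, early endocardium and macrophages, was called for the averaged Nipbl effect, at 0.56 (SE 0.13, adjusted p 0.00958, edgeR), and at 0.52 with Nipbl_het replicate 2 left out. Over 50 alternatives 48 passed, with adjusted p from 0.00121 to 0.216, and the call was lost without set 2 or set 5. Within sets 2, 5 and 6 the differences from wild-type were 0.54, 0.72 and 0.29 in Nipbl_het and 0.61, 0.59 and −0.09 in double_het. Lyve1 was above the wild-type mean in 9 of 9 Nipbl_het and 8 of 9 double_het libraries. Of 16 other blood cell genes 1, Tyrobp of macrophages, was also higher for the averaged Nipbl effect (4.02% of all genes called), at 1.01 (SE 0.26, adjusted p 0.0204, edgeR). It was called in Nipbl_het too (1.71%), at 1.35 (SE 0.34, adjusted p 0.0313, edgeR). Tyrobp was low, with 4 to 31 counts a library in wild-type and 13 to 83 in Nipbl_het. Its highest Nipbl_het library was replicate 2, which goes against its label. Of the 16 genes, 14 were above 0 for the averaged Nipbl effect and 14 in Nipbl_het, with list medians of 0.38 and 0.83. Their mean log2 CPM ran from 0.53 to 1.79 in wild-type, 0.43 to 2.85 in Nipbl_het (2.85 in replicate 2, next 1.85) and 0.47 to 1.98 in double_het, with overlap. Their part in the value of Lyve1 was not tested. Tgfbr3 (−0.38), Epas1 (−0.37), Sox17 (0.40), Cdh13 (0.35) and Procr (0.34) also passed for the averaged Nipbl effect, as did Ets2 (−0.22), which encodes another ETS factor. Of these, Sox17 (adjusted p 0.0453, edgeR) passed in 21 of 50 alternatives, with adjusted p from 0.0153 to 0.244, and the others in 47 to 49 of 50. Ets2 fell by 0.27 in double_het against Isl1_het (SE 0.06, adjusted p 0.0242, edgeR), with −0.37, −0.18 and −0.20 within sets 2, 5 and 6. Adjusted p ran from 5.70e-04 to 0.386 (edgeR or DESeq2), with 40 of 50 alternatives past the threshold, 32 of them fits without 1 library. The settings that lost the call included no set term and leaving out set 1, 2 or 5. It was also lost without Isl1_het replicate 5, 6 or 7 or double_het replicate 6 or 8, at adjusted p of 0.0509 to 0.0651 (edgeR).

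Markers of other cell types gave their own values in the same comparisons. Of 7 epicardial genes 5 were called higher in double_het, against 2.6% of all genes called in either direction. They were Wt1 (0.53), Tbx18 (0.38), Upk3b (0.72), Upk1b (0.38) and Sema3d (0.73), and the list median was 0.51. The mean log2 CPM of that list ran from 4.85 to 5.72 in wild-type and from 5.91 to 6.25 in double_het, without overlap. Wt1 also passed in Nipbl_het (0.31) and in double_het against Isl1_het (0.54), where 1.71% and 0.957% of all genes passed. For the averaged Nipbl effect Wt1 (0.42), Upk1b (0.37) and Upk3b (0.31) were higher, against 4.02% of all genes called. For the averaged Isl1 effect Upk3b was (0.40), against 0.173%. Of 11 cushion mesenchyme genes 1, the collagen gene Col1a1, was lower for the averaged Nipbl effect (4.02% of all genes called), at −0.65 (SE 0.14, adjusted p 0.00449, edgeR). Of 12 cardiomyocyte genes 0 were called in double_het (2.6% of all genes), with a list median of −0.12. The part of the epicardial difference in the endothelial values was not tested.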

How the data were processed

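RNA from 37 hearts was sequenced as paired-end reads. Per the submitters' processing notes, reads were aligned to GRCm38 (mm10) with STAR and assigned to genes with featureCounts. Versions, annotation and strand setting are not given in the sources used here. The authors deposited 1 table of raw counts for 25239 genes, of which 4273 were 0 in every library. No row lacked a gene name.

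Counts were tested with edgeR 4.0.16 in R 4.3.3: genes kept by filterByExpr (minimum count 10, minimum total 15), TMM scaling, and a quasi-likelihood fit of genotype plus set number over all 37 libraries, with Benjamini-Hochberg adjustment over 15046 genes and a threshold of 0.05. The 8 comparisons were 5 pairs of genotypes, the interaction, and each gene's effect averaged over the other's genotypes. Log2 changes are edgeR's, with SE and 95% intervals from the test statistic. Differences within sets are of mean log2 CPM (prior count 2), with no test of their own. Means per kilobase divide CPM by the union of GENCODE M21 exons, which matched all 35 genes. Library totals were 23.4 to 51.0 M counts, and no pair of replicates was a duplicate. The test was checked on simulated counts.

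The 35 genes and the other lists were chosen with earlier results of these data known. All 35 may be named. Full values go to genes past the threshold and to the 4 with the largest change in each comparison, and genes of other lists are named when past the threshold. Alternatives used no set term, a replicate block, DESeq2 1.42.0, RLE scaling, other filters, 2 surrogate variables (sva 3.50.0), Xist or the erythroid level as covariate, and left out each set or library.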

Additional observations from a re-analysis of the deposited data

Results flagged for a closer look

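In 140 groups of libraries tested, each for 1 of the 35 genes in 1 genotype, 17 held a library far from the others by Dixon's criterion, which chance gives in about 1 group in 20. The genes share libraries, so these values are not independent. The library labelled Nipbl_het replicate 2 accounted for 9 of them. It was lowest for Tek at 67.7 CPM (next library 103 CPM), Npr3 at 34.96 CPM (92.0), Clec14a at 4.64 CPM (8.71), Gpr182 at 14.9 CPM (30.4), Rasip1 at 24.7 CPM (46.3), Ramp2 at 31.4 CPM (61.4) and Klf2 at 13.5 CPM (25.6). It was highest for Flt1 at 94.4 CPM (48.2) and Acvrl1 at 10.3 CPM (6.02). The same library had the lowest erythroid and the highest other blood cell marker level of all 37, and a level of Nipbl that goes against its label.

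Double_het replicate 8 was lowest in its group for Pecam1 at 81.3 CPM (next library 113 CPM), Cdh5 at 99.1 CPM (165) and Nfatc1 at 31.7 CPM (46.6). Wild-type replicate 7 was highest for Lyl1 at 71.8 CPM (29.4) and Lmo2 at 41.1 CPM (26.3), and it also had the highest erythroid level, a mean log2 CPM of 9.76. Flt4 was lowest in Nipbl_het replicate 8 at 9.70 CPM (17.8). Acvrl1 was lowest in Isl1_het replicate 1 at 2.54 CPM (3.91), and Klf2 was lowest in Isl1_het replicate 9 at 23.5 CPM (30.3).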

How the results depend on the processing

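The count of called endothelial genes, 0 in each genotype comparison, moved under a few alternatives, and the cause was not tested. With 2 surrogate variables added to set number it was 3 in Nipbl_het (Flt1 and Npr3 lower, Cldn5 higher), where 8.76% of all genes passed. In that fit it was 7 in double_het (11.7%), 5 for the averaged Nipbl effect (13.5%) and 2 for the averaged Isl1 effect (1.62%). With no set term it was 5 in double_het (3.79%) and 4 for the averaged Nipbl effect (6.95%). With a replicate block in place of set number it was also 5 (4.05%) and 4 (6.60%). DESeq2 gave 1 for the averaged Nipbl effect (Hhex, 5.46%), and so did leaving out set 5 (1, Npr3, 1.81%). Leaving out single libraries gave 0 to 1 in 3 comparisons. In Nipbl_het it was Npr3 without Nipbl_het replicate 2, in double_het Hhex without wild-type replicate 2 or Nipbl_het replicate 2, and for the averaged Nipbl effect Npr3 without Nipbl_het replicate 2 and Hhex without Nipbl_het replicate 5, 7 or 8. The count stayed 0 under every alternative run in Isl1_het, double_het against either single heterozygote, and the interaction. For set number, the count of 20 became 8 without set 1 (22.8%), 5 without set 2 (9.46%), and 13 (34.9%) to 24 (55.7%) when 1 library was left out.

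The replicate numbers do not pair the libraries: of 54 same-number pairs 17 correlated over 0.1, with a median of 0.028, against −0.013 in other pairs. The change of Flt4 in double_het against Isl1_het turned to −0.11 without set 5, and the interaction of Tal1 turned to −0.029 with the erythroid level as covariate. Of values for single genes, 2309 kept direction and side of the threshold, 120 lost and 19 gained a call. They pool 49 results of a gene in a comparison, most of which were not called in the main fit and so could not lose a call. At 23.4 to 51.0 M counts a library, the lowest count of any of the 35 genes was 35, and their median biological coefficient of variation was 0.164, against 0.171 for all genes tested.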
